A study of Rattus norvegicus with 12 samples.

Results

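Transcripts of the extracellular matrix and of matrix receptors, together with annexins and S100 proteins, were read from 72 cDNA clones of 57 genes on nylon arrays of rat hippocampal cultures. The clones were taken by gene symbol alone, as collagen chains, laminin chains, tissue inhibitors of metalloproteinases (TIMPs), matrix metalloproteinases (MMPs), integrins and integrin-binding proteins, S100A proteins, annexins, fibronectin (FN1), SPARC and smooth muscle actin (ACTA2). They were 57 of the 6284 named genes and 72 of the 8496 clones with 1 gene symbol. Of these genes 10 were spotted more than once, as 25 clones, and ANXA2 was spotted as 5. The clones carry human gene symbols, and 56 of the 57 symbols have a rat gene of the same symbol in RefSeq (assembly GRCr8), ANXA8L1 being the exception.

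Hippocampal cells of Sprague Dawley embryos (embryonic day 18.5) were grown for 12 days, atop a glial feeder layer according to the methods, so glial RNA was part of every sample. All cultures first spent 3 h in the Block cocktail, in which D-APV (50 µM) and CNQX (40 µM) blocked glutamate receptors and TTX (100 nM) blocked sodium channels. They then stayed in inhibitors (Block) or received 50 µM bicuculline with 500 µM 4-aminopyridine (BiC/4AP), which raise synaptic activity, each without or with 25 µM actinomycin D (ActD), an inhibitor of transcription. The study describes washing out the blockers before BiC/4AP, and a pre-incubation with ActD or its DMSO vehicle before the stimulus. By that account ActD began before the times given here. Each of the 12 combinations with 5, 30 or 60 min had 1 array. The labels give these times as the length of treatment, whereas the methods describe a 5 min stimulus with RNA taken at once or 30 and 60 min after it. The labels describe each sample as 3 pooled coverslips, and the methods as RNA combined from separate experiments. Every label names replicate 2, and each condition is 1 array of pooled RNA, so p-values cover only the spread among these pooled samples, which may be technical.

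Collagens and laminins form the fibrils and basement membranes to which cells attach, and fibronectin and SPARC are secreted glycoproteins that bind them. MMPs cut matrix proteins and TIMPs inhibit MMPs. Integrins are paired alpha and beta chains that carry the signal from matrix to cytoskeleton. Annexins bind membrane phospholipids in the presence of calcium, and S100A proteins are small EF-hand calcium sensors, some of which bind annexins. In brain these transcripts are known mostly from glia, vessels, meninges and microglia, although neurons also make some integrins and MMPs.

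Signal above blank spots (the 95th percentile of an array's blank positions) was read on all 12 arrays for 58 of the 72 clones and on 1 to 11 arrays for the other 14. That percentile was 10, a value taken as a placeholder, on the 5 min arrays and on the 30 min arrays other than BiC/4AP. It was 17.6 on the 30 min BiC/4AP array and 14.7 to 22.7 at 60 min, so the bar differed between times. On every array the bar lay below the median of all spots, so it is a low one. The 14 were 5 annexin clones (both clones of ANXA4, 1 of 3 of ANXA5, ANXA9 and ANXA10), 3 collagens (COL4A6, COL9A3 and COL14A1), 4 clones of the integrin class (ITGB1, ITGB5, ITGB1BP1 and 1 of 3 of ITGB3BP), S100A8 and TIMP3. All clones of laminins, MMPs, FN1, SPARC and ACTA2 exceeded blank on every array. A further cut, the lowest 25% of named clones by mean intensity (29.1 intensity units), left 52 clones of 44 genes. The classes held 9 collagen clones (9 genes), 3 laminin (3), 4 TIMP (3), 8 MMP (7), 11 integrin (9), 14 S100A (11) and 19 annexin clones (12), with 2 of SPARC and 1 each of FN1 and ACTA2. ITGB1BP1 and ITGB3BP encode proteins that bind integrin tails and are no integrins. All 11 S100A genes lie on rat chromosome 2. COL1A1, COL1A2, COL3A1, COL4A1, COL4A2, LAMB1, TIMP2 and ITGA6 were not analysed here.

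Only 8 clones had a geometric mean intensity over the 12 arrays above 500 units, namely MMP1 (4271), ACTA2 (3576), MMP28 (2301, spot 2861), S100A4 (1632), FN1 (1336), TIMP4 (1051), ITGB7 (847) and ANXA7 (536). The intensity of a spot depends on its clone as well as on the transcript, so levels were not compared between clones. The other MMP28 clone (spot 7196) read 14.1 to 40.1 units, so the clones of this gene gave unlike signals. Collagen clones had mean intensities of 7.54 to 74.5, laminin clones 34.7 to 86.5, and the SPARC clones 104 (spot 6985) and 159 (spot 8190). Human clones were probed with rat RNA, and related members of these families share sequence, so a spot may also have read a close relative.

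**Figure D1:**
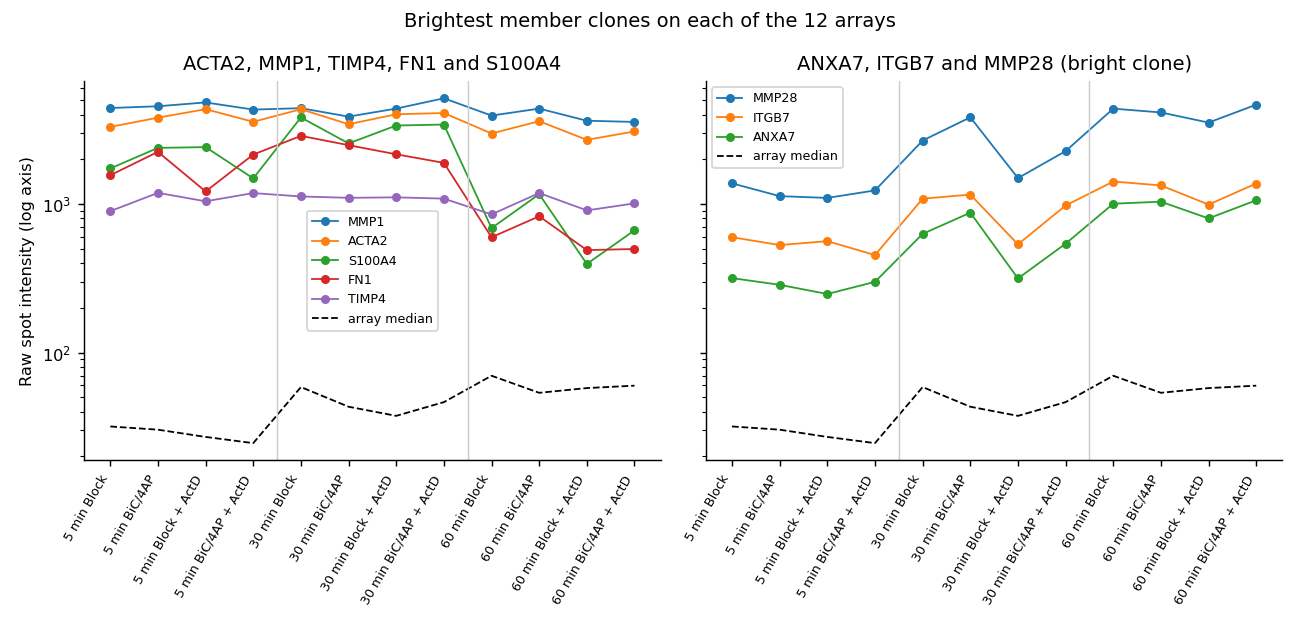
Raw intensity (log axis) of the 8 member clones with a mean above 500 units on each of the 12 arrays, with the array median as a dashed line. FN1 and S100A4 lie lower on all 4 arrays of 60 min than on any array of 5 or 30 min. ANXA7, ITGB7 and the bright MMP28 clone rise with time, as does the array median, which lay between 24.53 and 69.755. Within a time they do not always follow it. At 30 min each was highest under BiC/4AP, whereas the median was highest under Block.

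Array medians were 24.53 to 31.765 units at 5 min, 37.44 to 58.515 at 30 min and 53.53 to 69.755 at 60 min. Over all spots the 30 min BiC/4AP array was the least like the others (median r of 0.913, against 0.926 or more for each other array). Array numbers ran with time, so time and array series cannot be told apart. Neuron markers were read above blank on every array by all 11 clones of the 8 spotted genes, and so were 8 of 9 astrocyte, 4 of 4 microglia, 5 of 6 oligodendrocyte and 7 of 8 fibroblast and vessel marker clones. The blank bar lay below the median of all spots on every array, and the share of all spots above it is not given here. These counts therefore do not show which cell types were present. In RNA of mixed cultures, fewer cells of a type and less RNA per cell cannot be told apart. All values below are log2 intensities scaled to the same mean and SD on every array, where 0 is the array mean, and differences are given in log2 units with their SE from limma.

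The first question was whether these transcripts differed with synaptic activity. Over all times, with 6 BiC/4AP arrays against 6 Block arrays, 0 of 72 clones passed an adjusted p of 0.05, as did 0 (0%) of all 9600 spots. Unadjusted p was under 0.05 for 4 member clones (5.56%), against 4.67% of all spots, and the median difference was -0.02 for the members and -0.01 for all spots. Of the annexin clones 14 of 19 lay below 0 (median -0.07, with 47.8% of all spots above 0), and of the integrin class 8 of 11 above 0 (median 0.10), with 0 called in either.

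S100A3, a calcium sensor of the S100A cluster, had the smallest p among the brighter clones. Its scaled level was 1.31, 1.44 and 1.47 (lowest, median and highest) on the 6 Block arrays and 1.47, 1.70 and 2.08 on the 6 BiC/4AP arrays. All 6 pairs of arrays matched for time and ActD were above 0. The groups did not overlap, but only just, as the highest Block and the lowest BiC/4AP value both round to 1.47. This was 1 of 72 members, and 0.0729% of all spots did not overlap in this direction. The difference was 0.32 ± 0.13 (adjusted p = 0.781 by limma), with raw intensities of 83.9 to 197 under Block and 91.7 to 235 under BiC/4AP. Without the 30 min BiC/4AP array it was 0.22 ± 0.11.

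Among the other brighter clones ANXA7, an annexin of secretory granules, had 0.35 ± 0.15 with 5 of 6 pairs above 0, FN1 0.29 ± 0.17 and TIMP4 0.24 ± 0.15, each with 4 of 6. On the lower side were 1 clone of ANXA2 (spot 7182, -0.33 ± 0.17), COL6A2 (-0.32 ± 0.18), the stromelysin MMP10 (-0.26 ± 0.14, below 0 in 6 of 6 pairs) and 1 clone of ANXA5 (spot 6099, -0.26 ± 0.17). Without the 30 min BiC/4AP array ANXA7 had 0.22, MMP10 -0.15, COL6A2 -0.12 and ANXA5 -0.07, and without the 60 min BiC/4AP array TIMP4 had 0.16. The adjusted p of each of these was 0.781 over all arrays. Smaller p-values belonged to a pair of dim clones, ITGB5 (0.54 ± 0.17, above 0 in 6 of 6 pairs) and TIMP3 (-0.46 ± 0.18). How many of all spots had 1 sign in 6 of 6 pairs was not counted. SPARC was below 0 with both clones (-0.19 ± 0.16 and -0.14 ± 0.17), and ACTA2, at 0.05 ± 0.15, differed by less than its error.

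**Figure D2:**
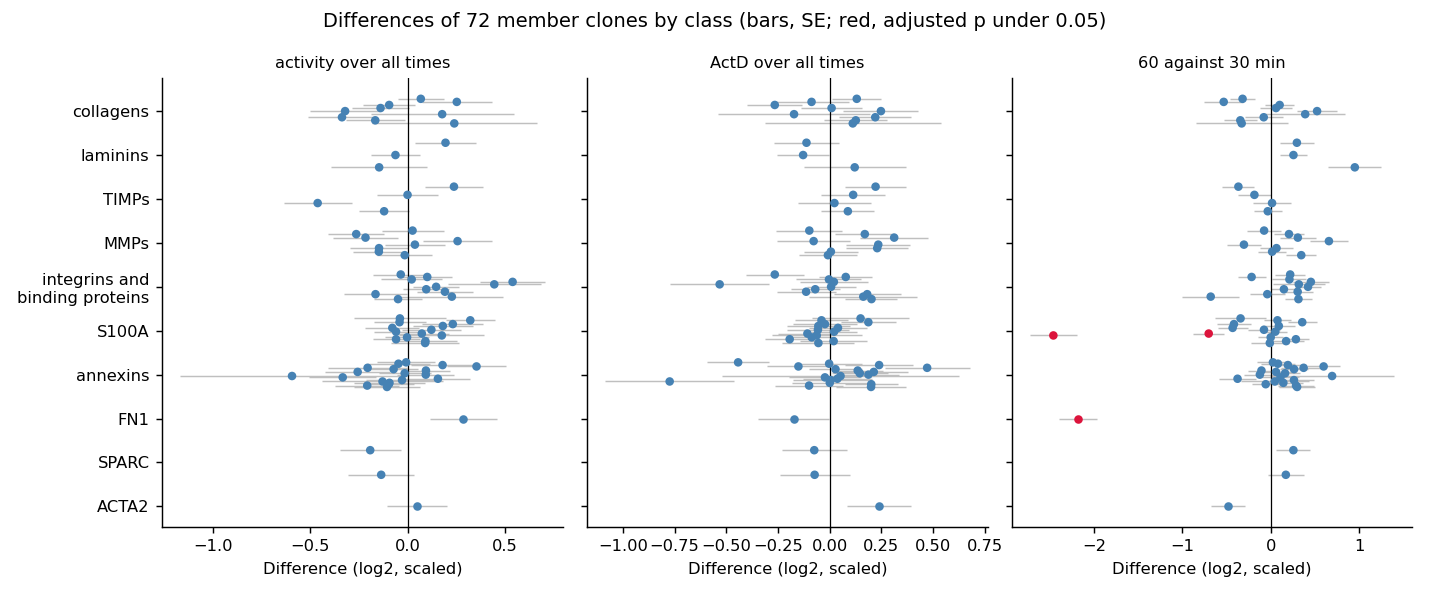
Difference of each of the 72 member clones (points, with SE as bars) by class for activity over all times, ActD over all times and 60 against 30 min, in scaled log2 units. No point is called in the first and second panels, and FN1, S100A4 and S100A13 are called lower (red) in the third.

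At 5 min, where the study looked for rapid changes after transcription, 0 of 72 clones were called, against 0% of all spots, and 4 had an unadjusted p under 0.05, against 4.8% of all spots. COL5A1, a chain of fibril-forming type V collagen, read -0.51 and 0.12 on the Block arrays and 0.48 and 0.75 on the BiC/4AP arrays, a difference of 0.81 ± 0.24. FN1 had a difference of 0.69 ± 0.27. Its raw intensity was 1564 (Block), 1215 (Block with ActD), 2245 (BiC/4AP) and 2153 (BiC/4AP with ActD). For both clones the BiC/4AP arrays lay above the Block arrays without and with ActD, but with 2 arrays against 2 the groups did not overlap in this direction for 18.8% of all spots, and the adjusted p was 0.972 for each. Leaving out single arrays gave 0.48 to 1.14 for COL5A1 and 0.53 to 0.84 for FN1. COL2A1 (-0.53 ± 0.23), a cartilage collagen, was the lowest of the brighter clones. FN1 differed by -0.12 at 30 min and 0.29 at 60 min, and COL5A1 by -0.36 and 0.31.

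At 30 min 0 of 72 clones were called (0% of all spots), and 9 had an unadjusted p under 0.05, against 9.89% of all spots. Higher values were read for ANXA7 (0.68 ± 0.25), ITGB7 (0.54 ± 0.21), S100A3 (0.48 ± 0.21) and the bright clone of MMP28 (0.64 ± 0.29). Lower values were read for the gelatinase MMP2 (-0.68 ± 0.26), MMP10 (-0.57 ± 0.24), ANXA2 (spot 7182, -0.73 ± 0.29; spot 3628, -0.77 ± 0.33) and ANXA5 (spot 6099, -0.65 ± 0.26). Most of these values depended on the 30 min BiC/4AP array. MMP2, for example, read 1.03 and 1.26 under Block, 0.01 on that array and 0.91 on the BiC/4AP array with ActD. Without it 1 member had an unadjusted p under 0.05, and the differences were 0.29 for ANXA7, 0.17 for S100A3, 0.15 for MMP28, -0.33 for MMP2, -0.27 for MMP10, -0.05 for ANXA2 spot 3628 and -0.12 for ANXA5 spot 6099. ITGB7 (0.39) and ANXA2 spot 7182 (-0.55) moved less. Without the BiC/4AP array with ActD instead, so that the outlying array alone stood for activity at 30 min, 11 members and 1162 of all spots were called. With all arrays kept, all 11 neuron marker clones were below 0 for activity at 30 min (median -0.35). At 5 min 3 of the 11 were below 0 (median 0.15), and at 60 min 4 (median 0.05). Of all 9600 spots, 4934 were below 0 at 30 min, 4961 at 5 min and 4850 at 60 min. Fibroblast and vessel markers had a median of 0.10 at 30 min. The dependence of these marker values on the 30 min BiC/4AP array was not tested. The part of cell composition in the members' values was not tested.

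At 60 min 0 of 72 clones were called (0% of all spots), 3 had an unadjusted p under 0.05 (5.01% of all spots), and 31 of 72 were above 0 (49.5% of all spots), with a median of -0.06 against -0.00 for all spots. S100A4 read 2.83 and 3.28 under Block and 3.45 and 4.29 under BiC/4AP, a difference of 0.81 ± 0.34 (adjusted p = 0.932), which was 0.35 without the BiC/4AP array and 1.28 without that with ActD. ANXA8L1 (-0.66 ± 0.26), the collagen chain COL9A1 (-0.50) and ANXA1 (-0.51) were lowest among the brighter clones, and leaving out 1 array brought them to -0.34, -0.10 and -0.03. The methods' own rule for a transcript regulated without transcription asks for a z-fold past 1.4 and of 1 sign in both the ActD and the ActD-free arrays, where z-fold is the difference of scaled values over its SD across clones. It was met by 0 members at 5 min (1.2% of all spots), 0 at 30 min (1.22%) and 1 at 60 min (1.6%). The 1 was TIMP3, the TIMP that stays bound to matrix, with z-folds of -1.81 without and -1.67 with ActD. Its raw intensity at 60 min was 37.18 and 28.82 under Block and 15.15 and 17 under BiC/4AP, with values above blank on 8 of 12 arrays. Both BiC/4AP values were under the blank percentile of their arrays (15.9 without and 22.7 with ActD). The z-folds of TIMP3 thus rest on values that were not above blank. Without the dimmest 25% of clones, among which is TIMP3, the 1 member at 60 min was S100A4 (z-folds of 2.51 and 1.53, higher), against 1.48% of spots, and FN1 met the rule at 5 min (2.03 and 2.19), against 1.88%.

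The next question was which transcripts were lower, relative to the array as a whole, while transcription was stopped. Scaling to the same mean removes a loss shared by all transcripts, so such a loss could not be read here. Over all times, with 6 ActD arrays against 6 without, 0 of 72 clones were called (0% of all spots), 4 had an unadjusted p under 0.05 (2.34% of all spots) and the median was 0.01 for members and -0.00 for all spots. Clones of ANXA2 went opposite ways, with 0.47 ± 0.20 for spot 3628, which was above 0 in 6 of 6 pairs, and -0.44 ± 0.15 for spot 585. The 30 min Block pair of spot 3628 barely differed, at 1.503 with ActD and 1.497 without. Without the 30 min BiC/4AP array, on which spot 3628 was lowest, that clone had 0.22. The remaining ANXA2 clones had 0.15, 0.19 and -0.02. All 4 TIMP clones lay above 0 (0.02 to 0.22). FN1 differed by -0.17 ± 0.17, SPARC by -0.07 and -0.08 and ACTA2 by 0.24 ± 0.15.

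On the 60 min arrays, with ActD against without, 0 of 72 clones were called (0% of all spots), and 4 had an unadjusted p under 0.05, against 4.67%. Both SPARC clones were below 0, with -0.64 ± 0.24 for spot 8190 and -0.46 ± 0.25 for spot 6985. Spot 8190 read 2.21 and 2.08 without ActD and 1.81 and 1.20 with it, and spot 6985 read 1.45 and 1.49 without and 1.43 and 0.60 with it. In both the low value was the BiC/4AP array with ActD, and the Block pair of spot 6985 differed by -0.02. MMP7 (0.50 ± 0.21), the leukocyte integrin chain ITGAL (0.47 ± 0.21) and MMP2 (0.50 ± 0.26) had the smallest p on the higher side, and S100A4 was at -0.64 ± 0.34. The adjusted p was 0.991 for SPARC, MMP7, ITGAL and S100A4 alike. Whether the activity difference depended on ActD was asked with an interaction term, for which 0 of 72 clones were called (0% of all spots) and 3 had an unadjusted p under 0.05 (2.58% of all spots). These were ANXA5 (spot 7185, -0.67 ± 0.30), S100A13 (-0.59 ± 0.25) and TIMP4 (-0.59 ± 0.26).

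**Figure D3:**
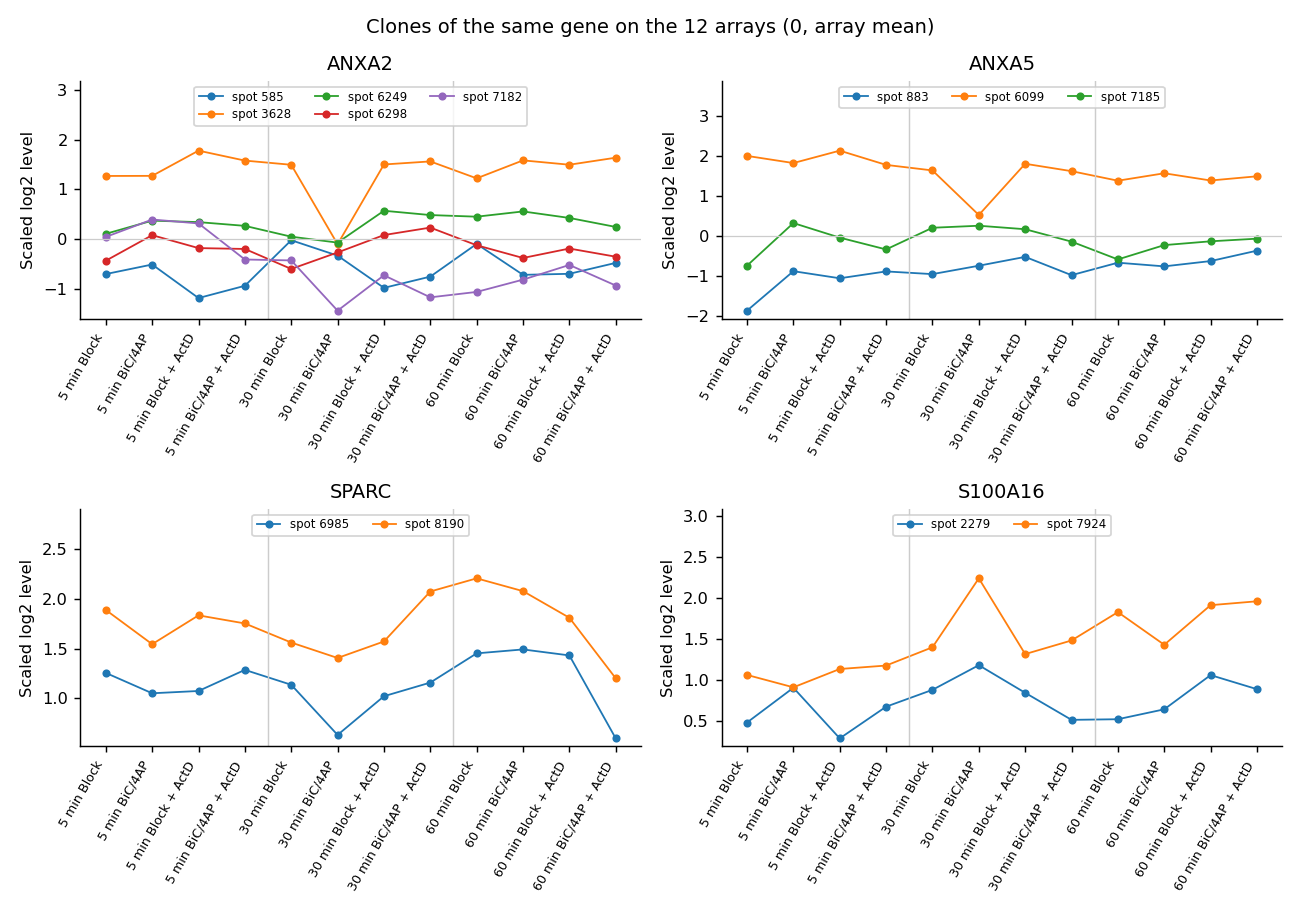
Scaled log2 level (0 is the array mean) of every clone of ANXA2, ANXA5, SPARC and S100A16 on the 12 arrays, 1 line per clone. The SPARC clones are both low on the 60 min BiC/4AP array with ActD (0.60 and 1.20), whereas 3 of the 5 ANXA2 clones (spots 3628, 6249 and 7182) are lowest on the 30 min BiC/4AP array (-0.11, -0.07 and -1.45) and spots 585 and 6298 are not.

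Different clones of a gene give a check within these arrays. Of the 23 pairs of member clones of the same gene, 15 (65.2%) had the same sign for activity over all times, against 53.7% of 3640 pairs over all genes, and 11 (47.8%) for ActD over all times, against 53%. For activity at 5 min the share was 47.8% against 53%, and for 60 against 30 min 60.9% against 54.1%. Pairs of clones of the same gene share that gene and these arrays and are not independent.

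Calls were made only between times, with 4 arrays against 4. These comparisons share the 30 min arrays. Between 30 and 5 min, 2 of 72 clones were called lower and 0 higher, against 0.385% and 0.0208% of all spots. ANXA11, an annexin that links RNA granules to lysosomes, read 0.36, 0.61, 0.59 and 0.74 at 5 min and -0.12, -0.28, -0.49 and -0.08 at 30 min (Block, Block with ActD, BiC/4AP, BiC/4AP with ActD). The groups did not overlap, as in this direction for 5.25% of all spots, and the difference was -0.82 ± 0.15 (limma adjusted p = 0.0273). Its raw intensity was 46.2 to 50.9 at 5 min and 33.8 to 58.1 at 30 min, while the array medians went up, so the call is one relative to the array as a whole. With the medians of print positions and blocks removed from each array the difference was -0.21 (adjusted p = 0.502).

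The ANXA2 clone at spot 7182 read 0.04, 0.31, 0.39 and -0.41 at 5 min and -0.43, -0.73, -1.45 and -1.18 at 30 min, in the same order of arrays, a difference of -1.03 ± 0.21 (adjusted p = 0.0473). Its highest value at 30 min lay just under its lowest at 5 min. The other ANXA2 clones differed by 0.31, -0.36, -0.01 and 0.04, none called, so the call was of 1 of 5 clones of this phospholipid-binding partner of S100A10. Among clones that were not called, COL27A1 had 0.68 ± 0.16 (adjusted p = 0.0886), MMP1 -0.70 ± 0.19 (0.117) and TIMP4 -0.62 ± 0.18 (0.124). MMP1 was called lower with normexp background correction (adjusted p = 0.0228) and with a pseudocount of 10 (0.0421), and COL27A1 higher without the dimmest 25% of clones (0.0492). Raw MMP1 was 4325 to 4832 at 5 min and 3879 to 5154 at 30 min, and raw TIMP4 895 to 1189 and 1087 to 1124, so the raw values of both times overlapped.

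Between 60 and 30 min, 3 of 72 clones were called lower and 0 higher, against 3.1% and 0.0417% of all spots, and the median difference was 0.08 for members and 0.04 for all spots. FN1 had the lowest p of the members. It read 5.35, 5.65, 5.65 and 5.12 at 30 min and 3.07, 3.16, 3.79 and 3.02 at 60 min (Block, Block with ActD, BiC/4AP, BiC/4AP with ActD). The difference was -2.18 ± 0.21 (4.54-fold lower in scaled units, limma adjusted p = 3.53e-06). Raw FN1 intensity was 1894 to 2877 at 30 min and 489 to 827 at 60 min, so it was lower before scaling too. The 60 min values lay below every 5 and 30 min value, and 5.85% of all spots had 60 min values wholly below those of 30 min.

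S100A4, a calcium sensor known from fibroblasts, macrophages and astrocytes, read 5.75, 6.29, 5.69 and 5.96 at 30 min and 3.28, 2.83, 4.29 and 3.45 at 60 min in the same order. The difference was -2.46 ± 0.27 (5.51-fold lower in scaled units, adjusted p = 1.21e-05). Raw intensity was 2559 to 3829 at 30 min and 395 to 1165 at 60 min. FN1 and S100A4 were lower in all 4 matched pairs of arrays, under Block and BiC/4AP and without and with ActD alike. S100A13, a partner in the release of fibroblast growth factor, read 0.78, 0.74, 1.22 and 0.69 at 30 min and -0.03, 0.48, 0.24 and -0.07 at 60 min, a difference of -0.70 ± 0.17 (adjusted p = 0.0320). With print position removed S100A13 had -0.42 (adjusted p = 0.131).

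**Figure D4:**
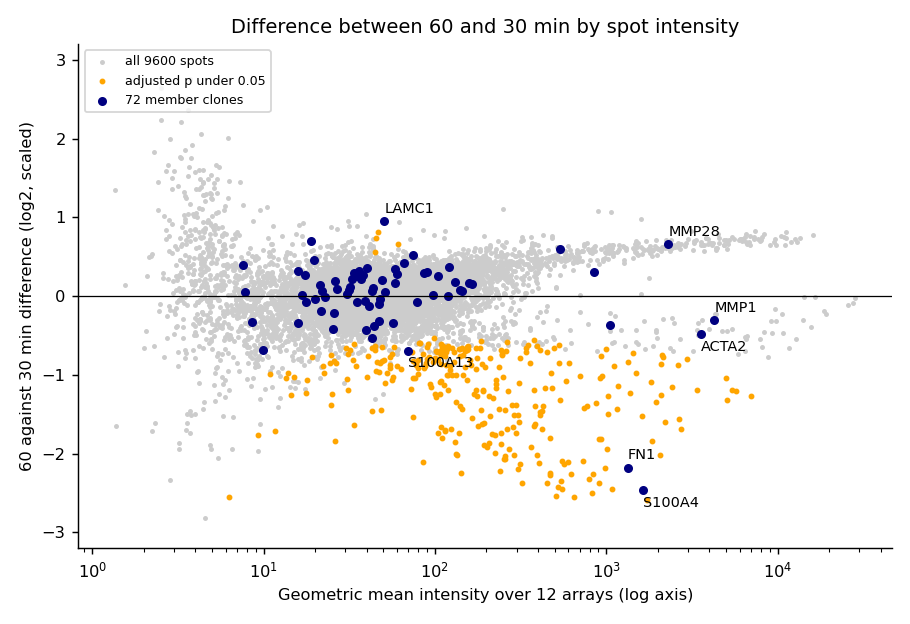
Difference between 60 and 30 min (scaled log2) against geometric mean intensity (log axis) for all 9600 spots (grey), those with an adjusted p under 0.05 (orange) and the 72 member clones (blue). FN1 (-2.18) and S100A4 (-2.46) lie with a group of bright spots below 0, and MMP28 (0.66) with the larger group above 0.

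Bright spots moved apart from each other between these times. Of 361 spots with a mean intensity above 500, the median difference was 0.52, and 65 (18%) were called lower and 0 higher. Called-lower spots were uneven over the 25 print positions of a block, from 12.8% at position 3, which is that of ACTA2, to 0.26% at position 16. Position 25, whose spots were taken as blank, also had 0.26%. The share was 5.73% at the position of FN1, 2.86% at that of S100A4 and 1.82% at that of S100A13. The part of array brightness and print position in these calls was not tested beyond the alternative with positions removed, under which FN1 and S100A4 were still called. Of the other bright members, ANXA7 had 0.60 ± 0.19 (adjusted p = 0.113), the bright MMP28 clone 0.66 ± 0.22 (0.131) and ACTA2 -0.48 ± 0.19 (0.211). ACTA2 was called in 2 of 21 alternatives, median centring (adjusted p = 0.0429) and quantile normalization (0.0386), and its largest adjusted p was 0.576. Its scaled levels at 60 min (5.43 to 5.924) lay just below those at 30 min (5.926 to 6.54). In this direction 5.85% of all spots did not overlap. Raw intensity of ACTA2 was 2707 to 3612 at 60 min against 3447 to 4351 at 30 min.

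By class, 15 of 19 annexin clones lay above 0 between 60 and 30 min (median 0.14), against 55.8% of all spots, as did 3 of 3 laminins (0.30), 6 of 8 MMPs (0.14) and 8 of 11 of the integrin class (0.22), with 0 called in any of them. Of the 9 collagen clones 5 were below 0 (median -0.08) and of the 4 TIMP clones 3 (median -0.11), also with 0 called. Of 14 S100A clones 8 were below 0, 2 of them called, against 3.1% of all spots called lower. LAMC1, the gamma chain common to most laminins, had 0.95 ± 0.30 (adjusted p = 0.121), but its 60 min arrays spread widely, with raw values of 171 (Block), 82.6 (Block with ActD), 52.3 (BiC/4AP) and 216 (BiC/4AP with ActD), against 37.8 to 67.0 at 30 min. Without the 60 min BiC/4AP array LAMC1 was called higher (1.33, adjusted p = 0.00497), and without that with ActD it had 0.54. Among genes of related function, cathepsin D (CTSD, spot 468), a lysosomal protease, was called lower (-1.0 ± 0.18, adjusted p = 0.00309). It was 1 of 13 clones of matrix proteases outside the MMPs, against 3.1% of all spots. In the list of collagen synthesis and crosslinking 1 of 16 clones was called lower between 60 and 30 min, against 3.1% of all spots. It was the dim clone of the collagen chaperone SERPINH1 (-0.97, adjusted p = 0.0477). Between 30 and 5 min another 1 of 16 was called lower, against 0.385% of all spots. This was PCOLCE (-1.18 ± 0.23, adjusted p = 0.0408), an enhancer of procollagen processing. Of 13 clones of other matrix glycoproteins, 10 of proteoglycans and 18 of focal adhesion adaptors, 0 were called in any comparison. Fibroblast and vessel markers without the members had a median of 0.06 between 60 and 30 min and astrocyte markers -0.10, with 0 of 8 and 0 of 9 called. Their summed raw intensity was 369 to 607 at 30 min and 586 to 662 at 60 min for fibroblast and vessel markers, and 424 to 670 and 590 to 692 for astrocyte markers.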

How the data were processed

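Total RNA of 12 samples, 1 per condition, was labelled with 33P and hybridized to nylon arrays of cDNA clones. The authors read spot intensity from phosphor screens with image software. The deposited values are linear intensities, not normalized, and the series matrix repeats them (100% identical). Of 9600 spots, 8496 had 1 gene symbol in the platform annotation, 21 several and 1083 none. The 384 spots at the last print position of each block were taken as blank, and 232 spots hold an exact value of 10, taken as a placeholder.

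Log2 intensities were z-scored on each array, as in the study's methods, and multiplied by the mean array SD of 1.75. Comparisons were fitted on all 9600 spots with limma 3.58.1 in R 4.3.3 (lmFit, eBayes with trend, two-sided, Benjamini-Hochberg, threshold 0.05), with time, activity and ActD as terms and 5 to 7 residual degrees of freedom, and tested on simulated data. No condition was repeated, so disagreement between times and arms is the spread. The number of arrays limits the precision. No column of another sample was used.

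Members, gene lists and tests were chosen with earlier results of these data known. Named clones are the 4 of smallest p in each direction above the lowest 25% of intensity, any called or co-regulated clone, and fixed class examples. ITGB5 and SERPINH1, both dim, were named after their values were seen. Alternatives were 10 other settings (scaling, background correction, pseudocount, filters, print position, variance trend, array order, without 30 min) and leaving out each of the 12 arrays. Clone sequences were not used here.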

Additional observations from a re-analysis of the deposited data

Results flagged for a closer look

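Of 57 tests of 1 array against the other 3 of its time, 3 marked an array far from the rest, and chance marks about 1 in 20. S100A3 (spot 230) stood at 1.66 on the 5 min BiC/4AP array with ActD (raw 91.7), with a gap of 0.849 of the range of the 4 arrays. ANXA2 (spot 3628) stood at -0.106 on the 30 min BiC/4AP array (raw 45.7), with a gap of 0.959 of the range. SPARC (spot 6985) stood at 0.598 on the 60 min BiC/4AP array with ActD (raw 99.2), with a gap of 0.933 of the range.

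Of 30 comparisons of a class between times, 3 had both pairs of arrays of 1 time on one side of 0 and both pairs of the other time on the opposite side. The class value for activity, a mean over pairs of the median over clones, was 0.165 at 5 min and -0.22 at 30 min for laminins, whose median fitted difference over the 3 clones was below 0 at both times (-0.02 and -0.09), so the turn is in the first measure only, and -0.146 at 5 min, 0.0856 at 30 min and -0.133 at 60 min for MMPs, which differed in this way at both steps (medians of fitted differences -0.09, 0.07 and -0.09). With so few pairs at each time, random signs alone would give this pattern in some of 30 comparisons. These differences were not tested.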

How the results depend on the processing

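FN1 and S100A4 were called lower between 60 and 30 min under all 21 alternatives that could be fitted, with differences of -2.37 to -1.99 and -2.76 to -2.24. The count of called members in that comparison was 5 with quantile normalization and 5 without the dimmest 25% of clones, and 2 to 5 when leaving out each array (5 without the 30 min BiC/4AP array, where ANXA7 and MMP28 were added as higher). All spots called there rose too, from 302 to 502, 524 (of 6955) and 771. ANXA7 was also added under both of these settings, with ACTA2 under quantile normalization and MMP28 without the dimmest clones. S100A13 was called in 14 of 21 alternatives (-0.88 to -0.38). Between 30 and 5 min 0 members were called with print position removed, 0 without the variance trend, 1 with array order as a covariate, 3 with normexp, 3 with a pseudocount of 10 (MMP1 added in both) and 3 without the dimmest 25% (COL27A1 added), and 0 to 2 when leaving out each array. All spots called were 2, 4, 25, 99, 55 and 98 in that order, against 39. ANXA11 was called in 13 of 21 alternatives and the ANXA2 clone in 8. The count was 0 without any one of the 5 min arrays, without the 30 min Block array with ActD and without the 30 min BiC/4AP array. For activity at 30 min the count was 0 to 11 when leaving out each array, 11 without the 30 min BiC/4AP array with ActD. In the other activity, ActD and interaction comparisons 0 members were called under every alternative. Co-regulated members at 5 min numbered 1 without blank and placeholder spots (1.61% of all spots) and 1 without the dimmest 25% (1.88%), FN1 in both, and 3 at 60 min with a z-fold threshold of 1 (3.49%), namely TIMP3 and ANXA4 lower and S100A4 higher.

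Clones that turned direction were none of them called. With print position removed, activity at 5 min gave -0.0212 for S100A16 (spot 2279), 0.0108 for ANXA3 and 0.039 for ANXA5 (spot 6099), activity at 60 min 0.0172 for ANXA1 and 0.1067 for SPARC (spot 6985), and the interaction 0.0179 for S100A13. Activity at 5 min for ANXA5 (spot 7185) was -0.0323 to 0.8029 when leaving out each array, with -0.0129 without the 5 min Block array and -0.0323 without the 5 min BiC/4AP array. Activity at 60 min for SPARC (spot 6985) was -0.8892 to 0.0942, the highest without the BiC/4AP array with ActD. The cause was not tested. Comparisons with 30 min could not be fitted without the 30 min arrays. No paired analysis was possible because all samples carry a single replicate number; time and ActD, on which arrays were matched, were terms of the fit. Dim clones, 20 of 72, limit what could be read.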
